A study of Mus musculus with 8 samples.

Results

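The family C vomeronasal type 2 receptors are the 7 genes Vmn2r1 to Vmn2r7. They were taken by gene symbol, as the 7 rows with exactly those names among the 27532 genes of the table, and compared with the other 117 listed Vmn2r genes where a difference was at issue. All 7 passed the filter on low values, which asked for 0.5 TPM or more on average. TPM are transcript abundances per length, scaled to a common sum in each library.

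Type 2 vomeronasal receptors (V2Rs) are G protein-coupled receptors with a large extracellular domain, made by the basal sensory neurons of the vomeronasal organ, which use the G protein subunit encoded by Gnao1. Most V2R genes are each used by a small set of neurons. Family C genes differ in that they are transcribed broadly through the basal layer, so that a basal neuron typically makes a family C receptor together with a V2R of another family, and they are therefore regarded as co-receptors. Within family C, Vmn2r1 is set apart from Vmn2r2 to Vmn2r7, and basal neurons have been described as using either Vmn2r1 or one or more of the other group.

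The libraries were made from polyadenylated RNA of the whole dissected vomeronasal organ of adult mice, 4 of them Tex15 heterozygous and 4 Tex15 knockout. The labels do not say how the allele was made. The controls themselves carry a mutant Tex15 allele, and no wild-type animal was analysed here. Heterozygous replicate 1 was male (11.4 weeks), replicate 2 female (14.6 weeks), and replicates 3 and 4 female (11.9 weeks). Knockout replicate 1 was female (11.9 weeks), replicates 2 and 3 male (11.9 weeks) and replicate 4 male (12.1 weeks). Heterozygous replicates 1 and 2 carried lower animal numbers in the labels, and the other 6 animals a later run of numbers, so the lower numbers hold no knockout.

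Between 17848502 and 26345558 reads per library were recovered from the TPM values. Tex15 (ENSMUSG00000009628) was at 2.72, 2.29, 2.81 and 2.27 TPM in heterozygous replicates 1 to 4 and at 0.870, 1.23, 1.12 and 1.14 TPM in knockout replicates 1 to 4, without overlap, in the direction of the labels. Its limma adjusted p over all genes was 0.794, with a log2 fold change of −1.22 relative to the median gene (SE 0.38). With limma-voom on recovered reads it was called, with a log2 fold change of −1.60 and an adjusted p of 0.0321. Omp, a marker of mature sensory neurons, stood at 66.6 TPM in heterozygous replicate 1 and between 570.9 and 943 TPM in the other 7 libraries. Gnao1 and Gnai2, the G protein subunit of apical neurons, were not low there. They stood at 17.3 and 175 TPM, beside 11.5 and 114 TPM in heterozygous replicate 2. The part of that library in the values below was not tested. The gene calls, the fits and shares of the members, the family C sum and its ratio to Gnao1, the V2R share and the ratio of Vmn2r1 to the other members were repeated without it. Knockout replicate 1 had the fewest family C reads, 9245, against 10293 to 21675 in the other libraries.

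The 7 genes lie in a row on chromosome 3 of GRCm38. Vmn2r1 (ENSMUSG00000027824, chr3:64081547-64109484) is on the plus strand. Vmn2r2 (ENSMUSG00000043897, chr3:64115278-64141928), Vmn2r3 (ENSMUSG00000091572, chr3:64257215-64289709) and Vmn2r4 (ENSMUSG00000092049, chr3:64383044-64415368) follow on the minus strand. Vmn2r5 (ENSMUSG00000068999, chr3:64488609-64509842), Vmn2r6 (ENSMUSG00000090581, chr3:64531310-64565830) and Vmn2r7 (ENSMUSG00000062200, chr3:64685044-64844765) complete the row on the same strand. Each has 6 coding exons in its main coding transcript, with 2724 to 2745 coding bases.

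The genes are similar enough that their sequences decide what a read can tell apart. Aligned coding sequences of Vmn2r6 and Vmn2r7 were identical at 98.76% of bases, Vmn2r4 and Vmn2r7 at 97.26%, and Vmn2r4 and Vmn2r6 at 96.82%, so these 3 genes form 1 close group. The next closest pair was Vmn2r2 and Vmn2r5, at 93.28%. Vmn2r3 reached at most 89.70% with any member, and Vmn2r1 was between 84.42% and 88.00% identical to each of the others.

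**Figure D1:**
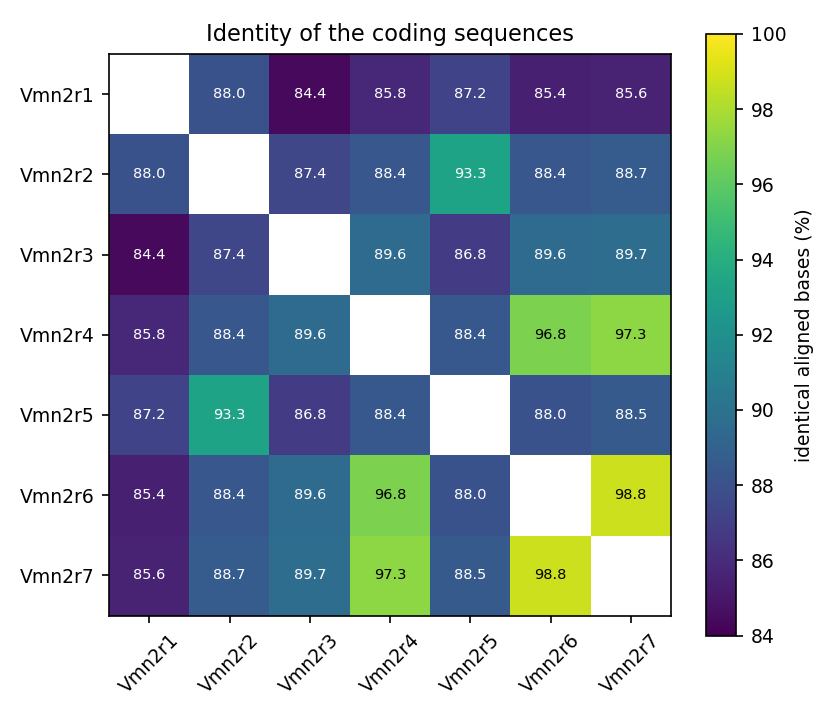
Percentage of identical bases between aligned coding sequences of each pair of family C genes, as a symmetric matrix with the diagonal left empty. Vmn2r4, Vmn2r6 and Vmn2r7 form a group at 96.82% or more, and Vmn2r2 and Vmn2r5 are a pair at 93.28%.

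A stretch of 90 coding bases from a single exon is shown for all 7 genes because it holds the most bases that Vmn2r5, the only member whose TPM did not overlap between the genotypes, shares with no other gene of Vmn2r2 to Vmn2r7. Of its positions 26 vary among Vmn2r2 to Vmn2r7. At 9 of them Vmn2r5 has a base that none of the other 5 has, and at 7 of these 9 the other 5 are identical. Capitals mark bases that differ from the commonest base of Vmn2r2 to Vmn2r7. At 3 positions, where Vmn2r2, Vmn2r3 and Vmn2r5 share 1 base and Vmn2r4, Vmn2r6 and Vmn2r7 another, the base of the latter was taken as the commonest. Each run is written 5′ to 3′ along the gene.
Vmn2r1: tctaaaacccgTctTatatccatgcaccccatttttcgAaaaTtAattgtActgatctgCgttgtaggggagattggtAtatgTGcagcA
Vmn2r2: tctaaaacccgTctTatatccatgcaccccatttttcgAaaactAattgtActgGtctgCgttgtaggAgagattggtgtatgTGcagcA
Vmn2r5: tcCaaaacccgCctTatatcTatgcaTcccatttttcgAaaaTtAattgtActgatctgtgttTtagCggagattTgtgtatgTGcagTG
Vmn2r3: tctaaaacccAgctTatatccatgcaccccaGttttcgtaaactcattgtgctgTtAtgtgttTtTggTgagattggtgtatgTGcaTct
Vmn2r4: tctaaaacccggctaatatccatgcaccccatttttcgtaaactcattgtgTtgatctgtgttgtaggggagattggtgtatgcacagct
Vmn2r6: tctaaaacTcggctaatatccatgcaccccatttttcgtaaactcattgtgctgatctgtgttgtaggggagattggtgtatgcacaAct
Vmn2r7: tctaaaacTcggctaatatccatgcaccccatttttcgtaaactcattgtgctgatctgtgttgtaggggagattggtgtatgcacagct

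These runs lie at chr3:64104874-64104963 in Vmn2r1 and chr3:64116927-64117016 in Vmn2r2. In Vmn2r5 the run is at chr3:64491316-64491405 and in Vmn2r3 at chr3:64259456-64259545. In Vmn2r4, Vmn2r6 and Vmn2r7 it is at chr3:64389116-64389205, chr3:64538056-64538145 and chr3:64691155-64691244. Vmn2r5 holds 16 capitals, or 13 without the 3 tied positions. Vmn2r1, Vmn2r2 and Vmn2r3 hold 11 each, or 8 without them, and Vmn2r4, Vmn2r6 and Vmn2r7 hold 1, 2 and 1. Nearer the 3′ end of the coding sequence a second stretch of the same length, at chr3:64105312-64105401 in Vmn2r1 and chr3:64490878-64490967 in Vmn2r5, is identical in all 7 genes and is shown as the opposite case; a read of 150 bases reaches past it.
All 7 genes: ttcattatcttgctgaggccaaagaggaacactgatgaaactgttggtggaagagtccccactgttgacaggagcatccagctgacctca

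Over all annotated transcripts of a gene, windows of 100 bases were looked up in every transcript of GENCODE M21. The share of windows found in no other gene was 94.79% for Vmn2r1, 91.91% for Vmn2r2, 99.14% for Vmn2r3 and 90.14% for Vmn2r4. It was 74.62% for Vmn2r6 and 71.74% for Vmn2r7, which share about 23% of their windows with each other (23.15% and 23.04%). For Vmn2r5 it was 68.81%. Of its windows 26.29% were also found in the pseudogene Vmn2r-ps11, which lies beyond Vmn2r6, 20.96% in Gm26939, which was not analysed here, and 5.27% in the pseudogene named Vmn2r-ps5 in GENCODE M21 and Vmn2r128 in the table. Other family C genes held 3.45% of them. A window can be counted under several of these genes. How the counting program treated reads that match several genes is not given in the sources used here, so the division of reads within such pairs is uncertain.

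In heterozygous libraries Vmn2r2 was the most abundant family C transcript and Vmn2r3 the least. Mean TPM were 42.9 ± 16.6 for Vmn2r2, 36.7 ± 14.9 for Vmn2r7, 33.9 ± 13.3 for Vmn2r6 and 21.8 ± 9.31 for Vmn2r4 (SD, n = 4). They were 18.8 ± 7.47 for Vmn2r1, 7.43 ± 3.02 for Vmn2r5 and 6.10 ± 2.15 for Vmn2r3. Each neighbouring pair in that order differed by less than the larger SD of the pair, except Vmn2r1 and Vmn2r5. Within a library, however, the order was the same in all 4 heterozygous libraries, since libraries differed mainly by a factor common to the 7 genes. The 7 genes together summed to 160.0, 86.6, 247.8 and 176.1 TPM in heterozygous replicates 1 to 4. In the same libraries Gnao1 was at 17.3, 11.5, 30.7 and 23.7 TPM, so the library with the least family C RNA also had the least Gnao1, and the one with the most had the most.

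The level of Vmn2r3 depends on the length used. TPM divide its reads by 17411 bases of annotated exons, while its main coding transcript has 5149 bases. Per kilobase of the main coding transcripts, an alternative chosen after the data had been seen, Vmn2r3 made up 11.2% ± 1.33 of the 7 genes in heterozygous libraries instead of 3.70% ± 0.477 (SD, n = 4), and lay above Vmn2r1 in 3 of the 4. Vmn2r5 then became the lowest member in all 8 libraries, and the order of the remaining genes of heterozygous libraries was kept.

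In knockout libraries 2 of the 7 genes, Vmn2r1 and Vmn2r5, had higher mean TPM and the other 5 had lower ones. Vmn2r5 was at 8.46, 3.69, 10.86 and 6.69 TPM in heterozygous replicates 1 to 4 and at 11.3, 15.7, 10.95 and 18.04 TPM in knockout replicates 1 to 4. The groups did not overlap, but heterozygous replicate 3 (10.86 TPM) and knockout replicate 3 (10.95 TPM) nearly met. No other member was without overlap in TPM, against 0.473% of all 20305 genes tested that were higher in every knockout library.

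Vmn2r1 was at 17.2, 9.67, 27.6 and 20.7 TPM in heterozygous and at 19.8, 30.9, 26.0 and 31.5 TPM in knockout replicates 1 to 4. Knockout replicates 2 and 4 lay above every heterozygous library, and the other 2 within their range. Vmn2r2 was at 40.6, 21.6, 61.5 and 48.0 TPM in heterozygous and at 24.0, 32.3, 32.8 and 32.4 TPM in knockout libraries. Here heterozygous replicate 2 was the lowest of the 8 and the other 3 heterozygous libraries were the highest. Vmn2r6 ran from 18.6 to 50.6 TPM in heterozygous and from 20.7 to 31.4 TPM in knockout libraries, and Vmn2r7 from 19.2 to 55.6 and from 21.9 to 37.7. The ranges of Vmn2r4 were 10.53 to 33.3 and 16.6 to 19.99 TPM, and those of Vmn2r3 3.26 to 8.33 and 4.03 to 6.37. For each of these 4 genes the knockout range lay inside the heterozygous one.

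**Figure D2:**
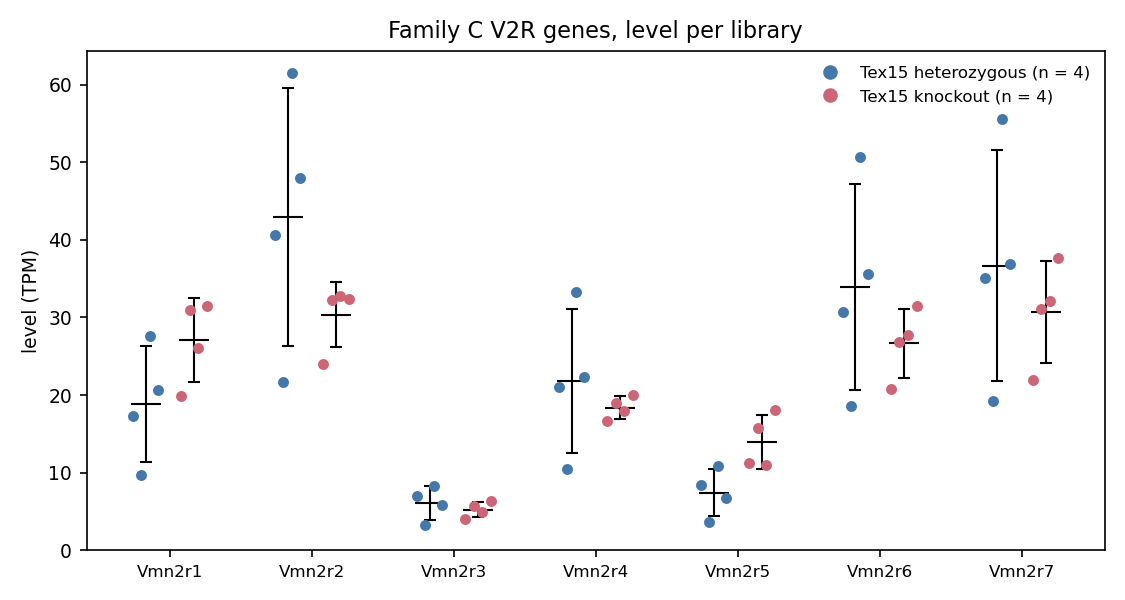
TPM of each family C gene (y axis) in the 4 heterozygous and 4 knockout libraries, with 1 point per library and the group mean ± SD as a bar. Vmn2r5 is the only gene whose groups do not overlap, and the heterozygous libraries spread widely for every gene, from 86.6 to 247.8 TPM in the sum.

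A limma fit of log2(TPM + 0.5) with genotype and sex as terms called 0 of the 7 genes, where 0.586% of all genes tested were called (119 of 20305, adjusted p under 0.05, 43 higher and 76 lower). After median-ratio scaling the calls divided into 28 higher and 127 lower, and after scaling to Gnao1 into 39 and 112, again with 0 of 7. The balance of the calls turned to 69 higher and 42 lower without knockout replicate 1, and was 126 and 128 without heterozygous replicate 4. At an unadjusted p under 0.05 there were 0 of 7 in the TPM fit and 630 of all genes. Relative to the median gene, the log2 fold changes were 0.26 for Vmn2r1 (SE 0.39) and 0.56 for Vmn2r5 (SE 0.41). They were −0.71 for Vmn2r2 (SE 0.38), −0.56 for Vmn2r6 (SE 0.38), −0.54 for Vmn2r7 (SE 0.38), −0.54 for Vmn2r3 (SE 0.40) and −0.39 for Vmn2r4 (SE 0.39). The adjusted p tests the coefficient before the median is subtracted, which for Vmn2r1 ran from −0.26 to 0.75 over the fits. Relative to the median gene of each fit, the signs of all 7 were kept in each of the 21 alternatives, but not their sizes. Vmn2r5 went to 0.29 without knockout replicate 1, Vmn2r4 to −0.18 without heterozygous replicate 1 and −0.61 without knockout replicate 1, and Vmn2r3 to −0.32 without heterozygous replicate 1. Vmn2r1 went to 0.16 without knockout replicate 2 and to 0.058 in the later-numbered animals with the sex term. Over the alternatives the lowest limma adjusted p was 0.291, for Vmn2r2. The median of the 7 was −0.54, beside −1.58 for the 100 other V2R genes tested, of which 43 were called, 6 higher and 37 lower.

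The level of the family C sum overlapped between the groups, at 86.6 to 247.8 TPM in heterozygous and 118, 161.5, 152 and 177 TPM in knockout replicates 1 to 4, while the shares of 4 of its 7 genes did not. In ratio to the family C sum, 2 of the 7 were higher without overlap, against 3.61% of all genes tested, and 2 were lower, against 1.03%. Shares of the family C sum do not change when a library is multiplied by 1 factor, and they remove most of the spread seen in TPM. Vmn2r1 held 10.77%, 11.17%, 11.15% and 11.75% of the sum in heterozygous replicates 1 to 4 and 16.7%, 19.1%, 17.1% and 17.8% in knockout replicates 1 to 4. Every knockout library was higher, and the means were 11.2% ± 0.403 and 17.7% ± 1.06 (SD, n = 4). Vmn2r5 held 5.29%, 4.27%, 4.38% and 3.803% in heterozygous and 9.51%, 9.72%, 7.18% and 10.17% in knockout libraries. Again every knockout library was higher, with means of 4.43% ± 0.621 and 9.15% ± 1.34. Together the pair went from 15.6% ± 0.281 to 26.8% ± 2.03 of the sum.

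Vmn2r2, the closest relative of Vmn2r5 in sequence, had a lower share. It held 25.4%, 25.0%, 24.8% and 27.3% in heterozygous and 20.3%, 19.98%, 21.5% and 18.3% in knockout libraries, without overlap. The share of Vmn2r6 was 19.2%, 21.5%, 20.4% and 20.2% in heterozygous and 17.5%, 16.6%, 18.2% and 17.7% in knockout libraries, also without overlap. For Vmn2r7 the groups overlapped, at 20.9% to 22.4% and 18.5% to 21.3%. Vmn2r4 (12.2% to 13.4% and 11.3% to 14.03%) and Vmn2r3 (3.33% to 4.35% and 3.19% to 3.59%) overlapped as well. Because shares add to 100%, the gain of 1 gene lowers the others by construction.

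Within the near-identical group the ratios overlapped between the genotypes. Vmn2r6 was at 0.930 ± 0.0460 of Vmn2r7 in heterozygous and 0.876 ± 0.0488 in knockout libraries, and Vmn2r4 at 0.588 ± 0.0271 and 0.615 ± 0.102 (SD, n = 4). The knockout ratios of Vmn2r4 to Vmn2r7 were the more spread, from 0.530 to 0.759. The ratio of Vmn2r5 to Vmn2r2 was 0.208, 0.171, 0.177 and 0.139 in heterozygous and 0.469, 0.487, 0.334 and 0.557 in knockout libraries. Its mean went from 0.174 ± 0.0282 to 0.461 ± 0.0933, a ratio of means of 2.65.

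**Figure D3:**
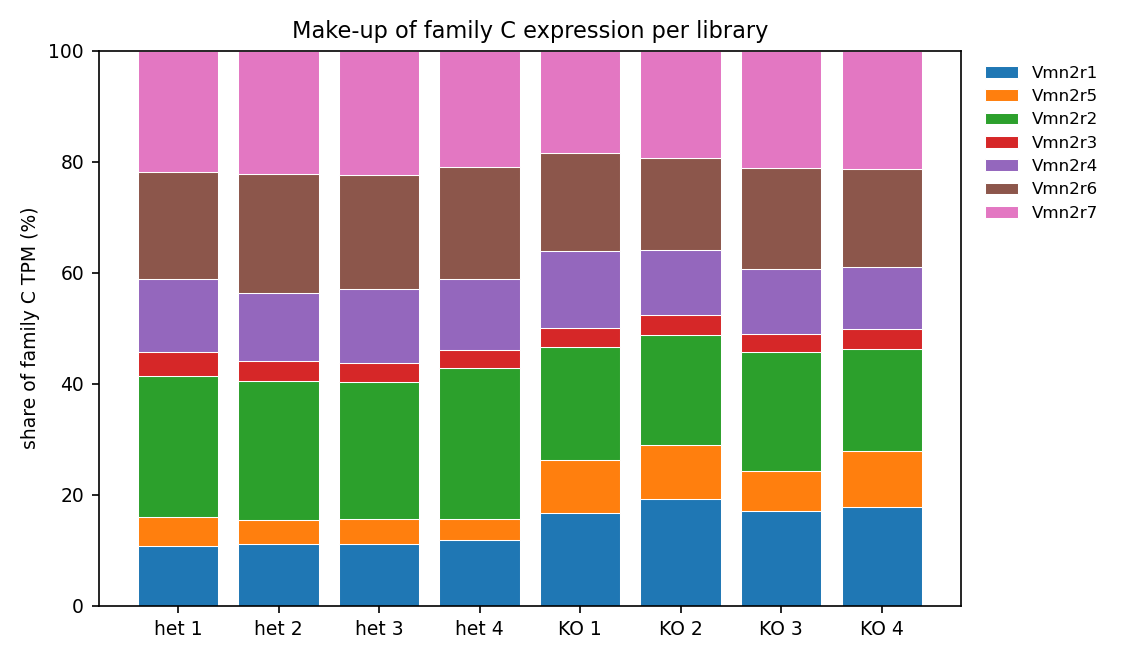
Share of each family C gene in the family C TPM (y axis, percent) for each library, stacked to 100%, with het for heterozygous and KO for knockout. The lowest segments, Vmn2r1 and Vmn2r5, together end at 15.4% to 16.1% in heterozygous and at 24.3% to 28.9% in knockout libraries.

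The balance between Vmn2r1 and the other group was read as the ratio of its TPM to the sum of Vmn2r2 to Vmn2r7. It was 0.121, 0.126, 0.126 and 0.133 in heterozygous replicates 1 to 4 and 0.201, 0.237, 0.206 and 0.216 in knockout replicates 1 to 4. The means were 0.126 ± 0.00512 and 0.215 ± 0.0158 (SD, n = 4). Each knockout value lay above each heterozygous one, and the mean log2 difference was 0.77. It stayed between 0.72 and 0.80 in every alternative run, leaving out any 1 library included. In a bulk sample, a change in the number of cells that use a gene and a change in its RNA per cell cannot be told apart.

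Recovered reads gave the counting precision of a single library. Vmn2r5 made up 2.60% of 10293 family C reads in heterozygous replicate 2, with a 95% Wilson interval from 2.31% to 2.93%. The highest heterozygous value was 3.23% in replicate 1, with an upper bound of 3.47%, and the lowest knockout value was 4.49% in replicate 3 (4.14% to 4.85%), so these intervals did not touch. For Vmn2r1 the highest heterozygous share was 9.88% (9.44% to 10.34%, replicate 4) and the lowest knockout share 14.2% (13.54% to 14.96%, replicate 1). These intervals cover counting error only, since reads without molecular identifiers are not independent molecules.

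When each library was rescaled so that its family C sum equalled the mean sum, a limma coefficient measures the log2 change of a gene's share. This fit called 0.706% of all genes (144 of 20411) and 0 of the 7, of which 2 were under an unadjusted p of 0.05, with 3411 of all genes. The coefficient was 0.93 for Vmn2r5 (SE 0.22, limma adjusted p = 0.163) and 0.64 for Vmn2r1 (SE 0.19, adjusted p = 0.279). Those of the other 5 were −0.34 for Vmn2r2, −0.18 for Vmn2r6, −0.17 for Vmn2r3, −0.17 for Vmn2r7 and −0.02 for Vmn2r4, with SEs from 0.19 to 0.20. The coefficient of Vmn2r3 went to −0.027 without heterozygous replicate 1 and to −0.32 without knockout replicate 1, and that of Vmn2r7 to −0.094 without knockout replicate 1. That of Vmn2r4 changed sign, to 0.13, without heterozygous replicate 1. The sex term weighs the libraries unequally: the male heterozygote and the female knockout, replicate 1 of each group, enter the coefficient at 0.5, and each of the other 6 libraries at 0.167. Without the sex term the fit on shares called 165 of 20411 genes, 48 higher and 117 lower. Vmn2r5 was among them, with a coefficient of 0.99 (SE 0.20, limma adjusted p = 0.0457, range over the alternatives 0.0457 to 0.560), and the other 6 members were not. No member was called for sex or for an interaction of genotype with sex in either fit (limma, adjusted p of at least 0.671).

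**Figure D4:**
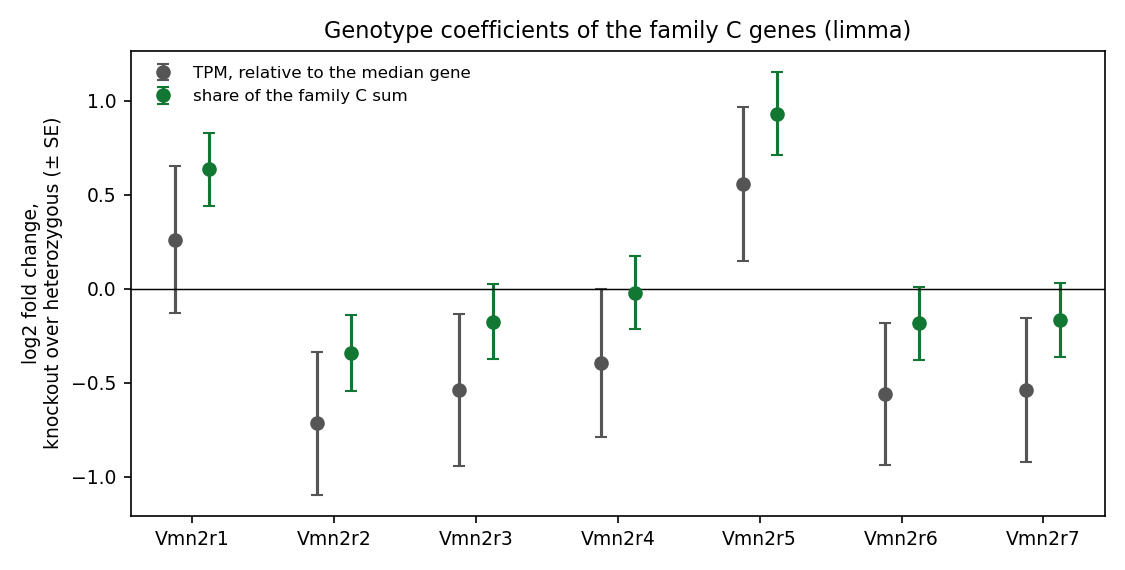
Genotype coefficient of each family C gene in limma (y axis, log2 knockout over heterozygous, bars ± SE), from TPM relative to the median gene and from shares of the family C sum. Vmn2r1 and Vmn2r5 are above 0 and the other 5 below it on both scales, with SEs of about 0.4 for TPM and 0.2 for shares.

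The shares of Vmn2r1, Vmn2r2, Vmn2r5 and Vmn2r6 did not overlap over all 8 libraries, so their direction within a sex or among the later animal numbers is fixed by construction, and only the sizes are given. Vmn2r1 was higher by 5.39 percentage points in the female knockout library than in the 3 female heterozygous ones, by 7.22 in the 3 male knockout libraries than in the male heterozygous one, and by 6.23 among the 6 later-numbered animals. For Vmn2r5 these differences were 5.36, 3.74 and 5.05 percentage points. Vmn2r2 differed by −5.38, −5.47 and −6.02 points and Vmn2r6 by −3.21, −1.66 and −2.83. The share of Vmn2r4 went in opposite directions, by 1.27 points between females and by −1.52 between males, and the interaction was not called (limma, unadjusted p = 0.503).

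Gnao1 was taken as a stand-in for the basal neurons as a whole, which was not tested. Relative to Gnao1, the mean of the family C sum differed by less than the spread within either group when all libraries were compared. It was 9.23, 7.51, 8.08 and 7.43 times Gnao1 in heterozygous replicates 1 to 4 and 7.05, 8.88, 7.69 and 7.33 times in knockout replicates 1 to 4, with means of 8.06 ± 0.830 and 7.74 ± 0.804 (SD, n = 4). The mean log2 difference was −0.06. Within each sex, however, the knockout side was lower without overlap. The female knockout library was at 7.05, beside a mean of 7.67 in the 3 female heterozygous ones, and the 3 male knockout libraries averaged 7.97, beside 9.23 in the male heterozygous one. Each of these comparisons rests on replicate 1 of a group as its only library on one side. The 6 later-numbered animals overlapped, with means of 7.75 and 7.74. The sum of the other 117 V2R genes was 35.6 to 39.9 times Gnao1 in heterozygous and 25.0 to 34.7 times in knockout libraries, without overlap. That difference of the sum holds per length only. In the ratio of a single gene between libraries the length cancels. Fitted gene by gene, the 100 other V2R genes tested had a median log2 fold change of −1.58 relative to the median gene. In recovered reads per read of Gnao1 the other V2R genes were at 25.9 to 30.2 in heterozygous and 23.3 to 34.1 in knockout libraries. Their means were 27.9 ± 1.85 and 28.9 ± 4.804 (SD, n = 4). Family C reads were at 6.01 ± 0.642 and 5.65 ± 0.562 on that scale, and both overlapped between the groups. Per Gnao1 in TPM, Vmn2r1 was at 0.901 ± 0.0667 and 1.37 ± 0.225 and Vmn2r5 at 0.361 ± 0.0894 and 0.708 ± 0.130, both higher without overlap, where 6.98% of all genes tested were. Vmn2r2 was at 2.06 ± 0.199 and 1.55 ± 0.200 and Vmn2r6 at 1.63 ± 0.109 and 1.35 ± 0.107, both lower without overlap, where 1.11% of all genes tested were. Vmn2r3, Vmn2r4 and Vmn2r7 overlapped per Gnao1. Gnao1 itself averaged 20.8 ± 8.25 TPM in heterozygotes and 19.7 ± 3.22 TPM in knockouts and was not called.

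**Figure D5:**
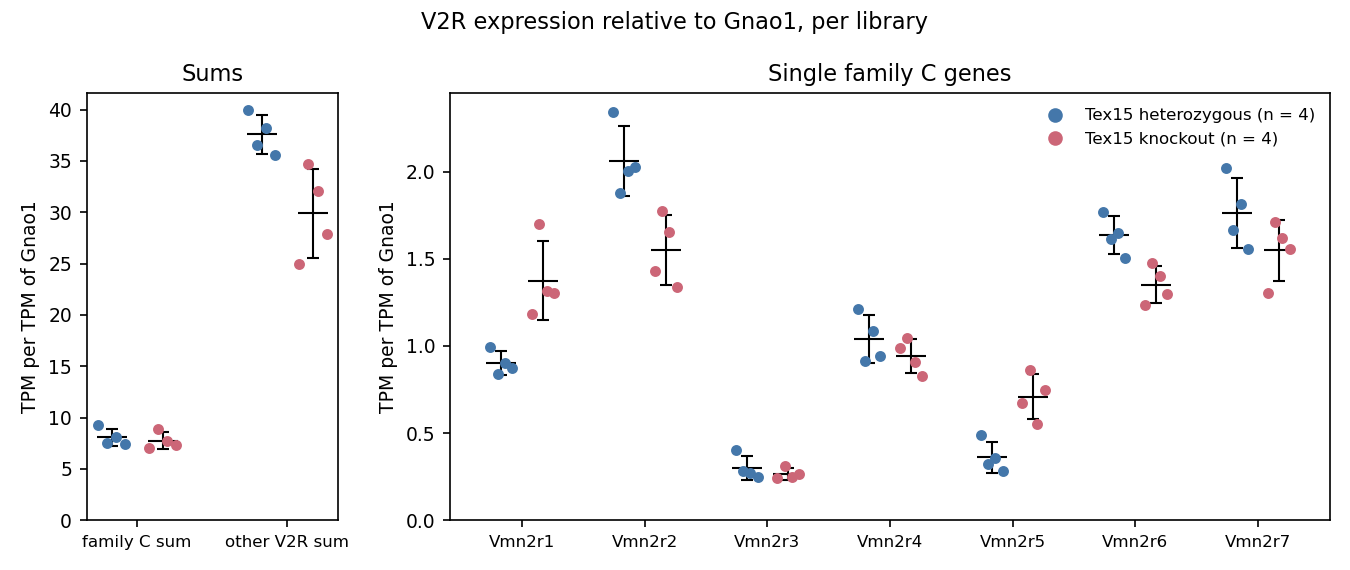
TPM divided by the TPM of Gnao1 in the same library (y axes), for the family C sum and the other V2R sum on the left and for each family C gene on the right, with 1 point per library and mean ± SD. The family C sum overlaps between groups, while Vmn2r1 and Vmn2r5 are higher and Vmn2r2 and Vmn2r6 lower in all 4 knockout libraries.

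As a share of all V2R TPM, family C made up 18.8%, 17.04%, 17.4% and 17.3% in heterozygous replicates 1 to 4 and 22.0%, 20.4%, 19.4% and 20.8% in knockout replicates 1 to 4. The means were 17.6% ± 0.781 and 20.6% ± 1.11 (SD, n = 4), without overlap. That direction rests on the per-length scale. By recovered reads, family C made up 18.6%, 17.2%, 17.6% and 17.5% of V2R reads in heterozygous and 18.1%, 15.9%, 15.2% and 16.7% in knockout libraries, a mean difference of −1.24 percentage points with overlap. The cause of the turn was not tested. Among the 124 V2R genes, 72 had values that gave whole reads only with a length other than that of GENCODE M21. Their reads rest on a length inferred from these values. All 7 family C genes gave whole reads with the M21 length. Against V2R TPM, Vmn2r1 went from 1.97% ± 0.0610 to 3.65% ± 0.250 and Vmn2r5 from 0.785% ± 0.145 to 1.90% ± 0.343, both without overlap, where 15.1% of all genes tested were higher in that ratio. The other 5 overlapped, where 0.911% of all genes tested were lower without overlap. By recovered reads, an alternative chosen after the data had been seen, Vmn2r1 went from 1.65% ± 0.0596 to 2.47% ± 0.184 of V2R reads and Vmn2r5 from 0.483% ± 0.0825 to 0.948% ± 0.183 (SD, n = 4). Both were again higher without overlap, where 1.96% of the 19915 genes that passed the filter and had recovered reads were. On that scale 3 of the other 5 were lower without overlap, where 0.693% of those genes were. Vmn2r2 went from 2.90% ± 0.172 to 2.15% ± 0.180, Vmn2r6 from 4.15% ± 0.0581 to 3.40% ± 0.266 and Vmn2r7 from 4.50% ± 0.187 to 3.90% ± 0.231. Vmn2r3 and Vmn2r4 overlapped on both scales.

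Other genes of the chromosome row were little transcribed. The pseudogenes Vmn2r-ps11, Gm20656 and Vmn2r128 lie between the first and the last member and reached at most 0.515, 0.598 and 0.160 TPM in any library. Their means over the libraries were under the filter of 0.5 TPM, so they were not tested. Vmn2r-ps11, which shares windows with Vmn2r5, was at 0.0954 to 0.479 TPM in heterozygous and 0.114 to 0.515 TPM in knockout libraries. The nearest tested genes outside the row were Gmps, an enzyme of guanine nucleotide synthesis, and Kcnab1, a subunit of potassium channels. Gmps changed by 0.0019 relative to the median gene (SE 0.38) and Kcnab1 by 0.15 (SE 0.54) on the log2 scale, with a limma adjusted p of 0.9995 for both.

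Genes that work with V2Rs were read from 3 lists. In a list of V2R signalling genes, 0 of 8 tested were called, and in a list of basal neuron genes 0 of 5, beside 0.586% of all genes. Their medians relative to the median gene were −0.21 and −0.19. In a list of V2R partners and trafficking factors 1 of 14 was called, 4 of 14 were under an unadjusted p of 0.05, beside 630 of all 20305 genes, and the median was −0.54. The called gene was H2-M9, a class Ib histocompatibility molecule made by basal neurons, which fell from 11.01 ± 5.11 to 1.80 ± 0.512 TPM (SD, n = 4). Its log2 fold change was −2.44 (SE 0.48, limma adjusted p = 0.0275), and the adjusted p was 0.751 without heterozygous replicate 1, 0.0546 without knockout replicate 1 and 0.0593 without knockout replicate 2. It was 0.168 with no filter on low values and 0.0895 with limma-voom on recovered reads, so the call was lost there too. Relative to the median gene, H2-M11, H2-M1 and H2-M10.4, of the same kind, were at −2.07 (SE 0.46), −1.73 (SE 0.43) and −1.54 (SE 0.41). These 3 were not called (limma adjusted p = 0.0908, 0.192 and 0.341). The remaining H2-M genes of the list were at −0.90 for H2-M10.2, −0.85 for H2-M10.3, −0.74 for H2-M10.5, −0.33 for H2-M10.6 and −0.09 for H2-M10.1, and were not called either. Calr4, a chaperone of the calreticulin family, averaged 205 ± 78.9 TPM in heterozygotes and 205 ± 28.4 TPM in knockouts. B2m, the light chain of class I molecules, ran from 1482 to 4003 and from 1593 to 3087 TPM. Gnai2, the G protein subunit of apical neurons, ran from 113.6 to 301.9 and from 199 to 292 TPM.

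The gene whose level followed the family C sum most closely over the 8 libraries, leaving the members aside, was Stbd1. The standard deviation of its log2 ratio to the sum was 0.068, beside a median of 0.38 over the 17992 genes that averaged 1 TPM or more. The pseudogene Vmn2r-ps159 (0.068), Cnpy1 (0.081), Gng8 (0.093), which encodes a G protein gamma subunit, and Calb2 (0.095), which encodes the calcium-binding protein calretinin, came next. Among the members, Vmn2r7 (0.097) and Vmn2r4 (0.11) followed the sum closely, Vmn2r6 (0.13), Vmn2r3 (0.14) and Vmn2r2 (0.20) less so, and Vmn2r1 (0.35) and Vmn2r5 (0.56) least. Members are part of the sum, which brings them closer to it. Gnao1 was at 0.14 and Gnai2 at 0.26.

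Markers of other cell types were present in every library, as the whole organ was used. Of 10 lists covering apical, mature and immature vomeronasal neurons, progenitors, olfactory sensory neurons, immune cells, erythrocytes, gland, cartilage and vessels, 0 had a called gene. Their summed levels overlapped between the groups. Summed TPM ran from 141 to 378 in heterozygous and from 209 to 293 in knockout libraries for the basal neuron list, from 168 to 509 and from 311 to 436 for the apical list, and from 22.8 to 60.5 and from 19.3 to 25.4 for the olfactory sensory neuron list. For erythrocytes they ran from 3900 to 20929 and from 4954 to 14334, and for immune cells from 1691 to 3901 and from 1738 to 4988. No list gene was at 0 in all 8 libraries. The part of these cell types in the values of the family C genes was not tested.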

How the data were processed

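RNA was sequenced as strand-specific paired reads, per the labels' protocols. The submitters' processing notes name Trim Galore 0.6.5, cutadapt 5.1, STAR 2.7.11b and deepTools 3.5.5, and the builds mm10 and GRCm38. The counting program and its rule for multi-mapped reads are not given in the sources used here. The authors deposited 1 table of TPM values, 1 column per library; 0 columns were left unused. Reads were recovered as TPM times summed exon length in GENCODE M21. For 72 of the 124 V2R genes whole reads needed another length. Totals of V2R reads cover all 124 genes and so rest in part on lengths inferred from the same values. Between 97.9% and 98.4% of low values per library came out whole within 0.05 reads, as did those of all 7 members, and 95.4% of genes gave reads. TPM keeps no depth of its own.

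Genes averaging 0.5 TPM or more were fitted in limma 3.58.1 (R 4.3.3; eBayes with trend; genotype and sex) on log2(TPM + 0.5) and adjusted over all genes by Benjamini-Hochberg; the log scale understates the change of low genes. The median gene changed by 0.19 as deposited and by −0.01 after median-ratio scaling. In a test on simulated data for the genotype comparison over 20305 genes, the fit recovered 190 of 200 changed genes, with 13 false calls. The planted changes were larger than those of the members and lay in genes of low spread, and each gene varied independently. The test therefore does not give the power to call changes of the members' size. Sums, ratios and shares were compared by overlap, without a test. Member shares of the family C sum were in addition fitted in limma after rescaling, as were TPM scaled to Gnao1. Each library came from a different animal, per the labels' titles. Coding sequences were aligned with MAFFT 7.526. Sequences are from GENCODE M21 transcripts (GRCm38).

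Members and gene lists were chosen with earlier results of these data known. Named genes were the members, Tex15, called genes of the V2R signalling, partner and basal lists, Gnao1, Gnai2, Omp and B2m, the genes of the chromosome row with the nearest tested genes, and the 5 genes closest to the family C sum. Trpc2 is not listed under that symbol. Calr4 and the H2-M genes other than H2-M9 were named after their values were seen. Alternatives were pseudocounts of 0.1 and 1, other filters, scalings and designs, limma-voom on recovered reads, the later animal numbers alone, and leaving out each library. Limma-voom on shares and member shares of V2R reads were added after the data had been seen.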

Additional observations from a re-analysis of the deposited data

Results flagged for a closer look

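In 116 groups of 4 libraries examined (58 values in each genotype), 5 had 1 library far from the other 3. Chance gives about 1 in 20 groups, and the values share libraries. Knockout replicate 1 was low for Vmn2r2 (24.0 TPM, the others 32.3 to 32.8) and for the sum of the other V2R genes (419 TPM, the others 631 to 674), and high for Vmn2r4 as a percentage of V2R TPM (3.09%, the others 2.28% to 2.40%). Heterozygous replicate 2 had a low ratio of Vmn2r4 to Vmn2r7 (0.548, the others 0.599 to 0.607). Heterozygous replicate 3 had a high value for the pseudogene Vmn2r-ps11 (0.479 TPM, the others 0.0954 to 0.128), all at the level of a few reads. No interaction of genotype with sex passed the limma threshold for a member.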

How the results depend on the processing

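With no library-size or depth figure deposited, precision rests on recovered reads, at least 268 per member and library. For TPM, 0 of 7 members were called in all 21 alternatives. All genes called numbered 119, or 72 with no filter on low values, 371 in the 6 later-numbered animals (184 without the sex term), 56 with limma-voom on recovered reads and 83 to 254 when 1 library was left out. The limma-voom fit tested 19915 genes instead of 20305. It left out genes without recovered reads, which can include V2R genes whose length differs from GENCODE M21. On shares, 1 of 7 was called without the sex term, with 165 of all 20411 genes. In the other 18 alternatives 0 of 7 were called, with 75 to 159 of all genes. The share coefficient of Vmn2r3 reversed in the later-numbered animals, to 0.025 with and 0.030 without the sex term, and its mean share difference there was 0.0786 percentage points. That of Vmn2r4 reversed to 0.10 in the later-numbered animals with the sex term, 0.13 without heterozygous replicate 1 and 0.014 with limma-voom on recovered reads; leaving out 1 library gave −0.17 to 0.13. The log2 difference of the family C sum, −0.06, ran from −0.34 to 0.16 when 1 library was left out, reversing without heterozygous replicate 3 (0.16) or knockout replicate 1 (0.06). It was −0.47 in the later-numbered animals, −0.25 with median-ratio scaling and −0.18 with sex as a term. That of its ratio to Gnao1, also −0.06, reversed without heterozygous replicate 1 (0.0081) and ran from −0.13 to 0.0081 when 1 library was left out; it was −0.17 with sex as a term. The family C share of V2R TPM, 3.01 points higher in knockout libraries, reversed to −1.24 points by recovered reads and was 2.56 to 3.45 points in the other alternatives. The causes were not tested. The replicate numbers did not pair the samples (correlations of deviations −0.061 to 0.097): a fit with replicate number as a block called 128 genes with and 130 without the sex term, 0 of 7 members. Median-ratio and Gnao1 scaling were not run on shares, where they cancel.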
